A study of Rattus norvegicus with 26 samples.

Results

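Transcript levels of injured rat spinal cord, treated with vehicle only and taken 21 days after a compression injury (+PBS-2w), were compared with those of cord without that injury (Intact). The comparison rests on 6 of the 26 libraries of the series, 2 of +PBS-2w and 4 of Intact, chosen by their labels, and on the 17990 of 32883 genes in the joint count table that passed a filter on low counts. All rats were adult female Sprague-Dawley rats of 250 g, labelled as postnatal day 70. That label is the same at every stage of the series, so it does not give the age at tissue collection. The +PBS-2w rats had a laminectomy and a clip of 60 g closed on the cord for 1 min at T10, and on day 7 an intrathecal injection of PBS without cells, 2 weeks before the tissue was taken. The labels give this group only as injured without MSCs, and the study's methods name PBS as the vehicle. Each library was made from the poly(A) RNA of a segment of 5 mm at the lesion, or of the comparable segment of an Intact rat. The methods call the Intact rats intact or sham. They describe daily cyclosporin A, and penicillin after surgery, without saying whether Intact rats received them. Injury, surgery, vehicle and any such difference in drugs or in age thus cannot be told apart here. The labels give 2 libraries to +PBS-2w and 3 to the matching stem cell group, the methods give these numbers the other way round while the results text of the paper counts as the labels do, and the labels were followed. The methods call the libraries biological replicates, while the labels do not tie each one to a rat.

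When the cord is crushed, neurons and the oligodendrocytes that make central myelin die at the site, and microglia and macrophages from the blood gather to clear the debris. Much of that debris is myelin, which is rich in cholesterol, and phagocytes that took it up stay in the lesion for a long time. Around them astrocytes become reactive and form a border, fibroblasts deposit a collagen-rich matrix, and the surviving circuits must work with fewer neurons and synapses.

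The +PBS-2w libraries held 31007696 and 31459506 counted reads, and the Intact libraries 19496602 to 26813098. Levels are given as CPM, read counts relative to the size of the library, after scaling by TMM, a factor that offsets differences in RNA composition. They are compared between libraries for 1 gene at a time, not between genes. At these depths 1 read is 0.032 CPM in +PBS-2w replicate 1 and 0.0546 CPM in Intact replicate 1, so levels well under 1 CPM rest on few reads. Fold changes are log2 values with their standard error (SE), and adjusted p-values are those of the quasi-likelihood test in edgeR, corrected over all 17990 genes by the Benjamini-Hochberg method. A gene was called where the log2 fold change exceeded 1 in size and the adjusted p was under 0.01. The spread behind each test was estimated over all 26 libraries, because 2 libraries alone give little information on it.

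The libraries carried the markers of spinal cord. Hoxc8, a gene of thoracic segment identity, was measured at 48.4, 36.6, 39.8 and 42 CPM in Intact and 40.7 and 33.8 CPM in +PBS-2w, and the neuron, myelin and astrocyte markers below were present in all 6 libraries. Genes of tissue around the cord varied among the Intact libraries. The summed level of 9 Schwann cell genes ran from 195 to 1743 CPM in Intact and from 1159 to 1643 CPM in +PBS-2w, and that of 5 meningeal genes from 13.3 to 138 and from 211 to 239.6 CPM. Intact replicate 1 was the lowest of the Intact libraries in both sums. Skeletal muscle genes summed to 10.5 to 317 CPM in Intact, the highest value being that of replicate 4, and red blood cell genes to 107 to 1745 CPM. Of these 4 lists, only Foxc1 and Tbx18 of the meningeal list passed the test, both higher in +PBS-2w, with Foxc1 losing its call when any 1 of the 6 libraries was left out and Tbx18 without either vehicle library or Intact replicate 1 or 2. Of the 4 mast cell genes listed, 3 were in the count table, with 0 to 7 reads a library, and were not tested.

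In +PBS-2w, 1591 genes (8.84% of those tested) were higher than in Intact and 1019 (5.66%) were lower, 2610 (14.5%) in all. The changes upward were the larger ones. The median log2 fold change of the higher genes was 1.85, with 699 above 2 and 246 above 3, whereas that of the lower genes was -1.51, with 157 beyond -2 and 19 beyond -3. For each of the 2610 genes both +PBS-2w libraries lay outside the range of the 4 Intact libraries. Over all genes tested both lay above that range for 31.1% and below it for 31.3%. The median log2 fold change over all genes was 0.00.

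The 2 vehicle libraries were not equally far from Intact. Replicate 1 was the further one for 1421 of the higher genes (89.3%) and for 947 of the lower genes (92.9%). The median difference from the Intact mean was 2.03 for replicate 1 and 1.64 for replicate 2 among the higher genes, and -1.83 and -1.21 among the lower genes (log2 CPM). They differed from each other by more than 1 on the log2 scale at 108 of the higher (6.79%) and 156 of the lower genes (15.3%). With replicate 1 left out, 890 genes were higher and 92 lower, 879 and 90 of them among the original calls. With replicate 2 left out, 1563 were higher and 823 lower. In each of these fits the lone vehicle library is assumed to vary like the other groups. The count of lower genes thus depended mainly on replicate 1, and counts below that change by more than 1.5 times without 1 library are given beside the list.

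**Figure D1:**
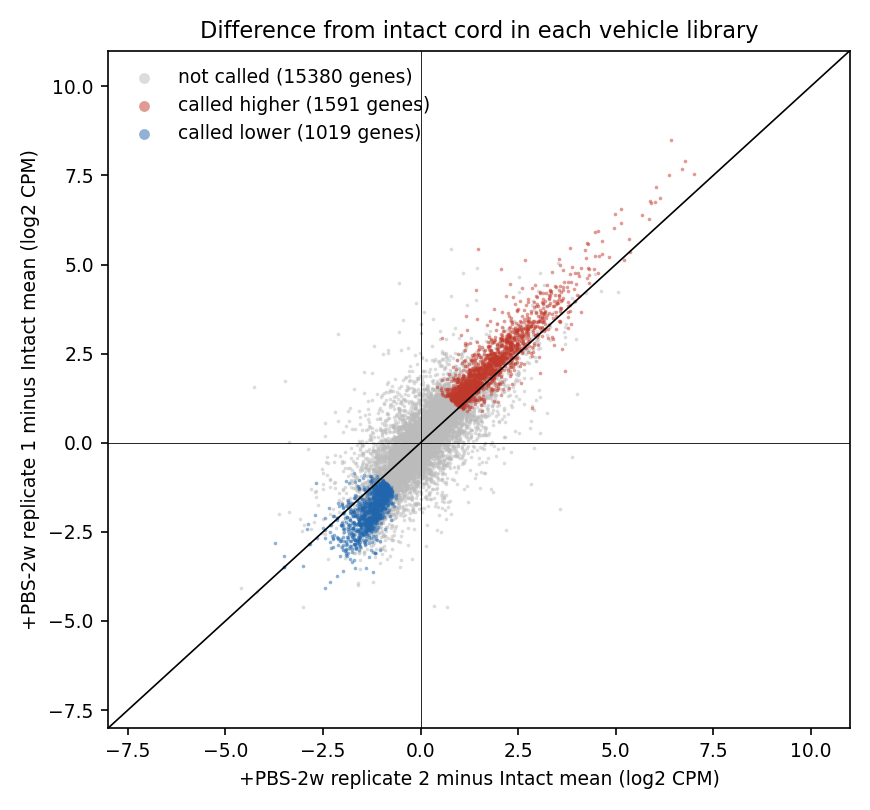
Each point is 1 of the 17990 genes tested, placed by the difference of its log2 CPM from the Intact mean in +PBS-2w replicate 2 (x axis) and replicate 1 (y axis), with called genes in colour and the diagonal marking equal differences. Of the 1591 genes called higher, 1421 lie above the diagonal, and of the 1019 called lower, 947 lie below it.

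Genes of phagocytes that handle lipid had the highest median of the 42 lists tested. Of 18 tested, 17 were higher in +PBS-2w, with a median log2 fold change of 3.57, and 14 were called without replicate 1. Gpnmb, a transmembrane glycoprotein of macrophages loaded with lipid, was measured at 20.1, 20.8, 24.2 and 36.1 CPM in Intact and 5067 and 2538 CPM in +PBS-2w. The log2 fold change was 7.23 ± 0.41 (SE; adjusted p = 4.82e-10). Cd68, a lysosomal glycoprotein that marks phagocytes, stood at 389 and 219 CPM in +PBS-2w against 2.40, 3.30, 3.56 and 5.82 CPM in Intact (6.32 ± 0.40, adjusted p = 6.39e-10). Clec7a, the receptor Dectin-1 of activated microglia, was at 157 and 118 CPM in +PBS-2w against 0.709, 1.65, 3.38 and 3.50 CPM in Intact (5.86 ± 0.36, adjusted p = 4.82e-10). In these 3 genes the lower vehicle library lay far above every Intact library, and replicate 1 was the higher of the pair.

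Carriers and sensors of lipid rose as well. Apoe, the apolipoprotein that takes lipid out of glia and macrophages, was measured at 2805, 2776, 2433 and 2751 CPM in Intact and 29110 and 17700 CPM in +PBS-2w (3.12 ± 0.25). Abca1, the pump that loads cholesterol onto such particles, stood at 717 and 504 CPM in +PBS-2w against 39.7, 56.3, 51.2 and 83.5 CPM in Intact (3.40 ± 0.32), and Trem2, the microglial receptor for lipids, at 203 and 146 CPM in +PBS-2w against 7.42, 12, 13.7 and 19 CPM in Intact (3.74 ± 0.32). Plin2, which coats lipid droplets, rose by 2.55, the fatty acid carrier Fabp5 by 1.84, and Spp1, the secreted protein osteopontin, by 2.55 on the log2 scale. Lpl, which releases fatty acids from lipoproteins, was the member that did not pass, at 35 and 27.8 CPM in +PBS-2w against 6.28, 11, 11.5 and 14.4 CPM in Intact (1.53 ± 0.45, adjusted p = 0.0117). Genes of resting microglia had a lower median, 0.98. Of 9 tested, 4 were called higher, among them the growth factor receptor Csf1r (1.94 ± 0.24), Gpr34 (2.17 ± 0.33) and Cx3cr1 (1.38 ± 0.30), and none lower. Tmem119 and P2ry12, markers of unstimulated microglia, gave 0.94 ± 0.26 and 0.98 ± 0.27 and were not called. In bulk tissue, more cells of a type and more RNA per cell cannot be told apart, and the same holds for fewer cells and less RNA in every list here.

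Lysosomal genes followed. Of 14 tested, 13 were higher, with a median of 2.50, and 12 were called without replicate 1. The cathepsins are proteases of the lysosome. Ctsd was measured at 440.2, 525, 520.0 and 541 CPM in Intact and 3904 and 3033 CPM in +PBS-2w (2.78 ± 0.23), Ctsb rose by 2.69, Ctsz by 3.10 and Ctss, a cathepsin of antigen-presenting cells, by 2.22. Lamp1, a structural protein of the lysosomal membrane, gave 0.80 ± 0.13 (adjusted p = 6.54e-05) and stayed under the fold threshold. RefSeq promoter windows, which run from 250 bases before to 50 after a gene's start in build GRCr8, were matched by symbol to 12 of the 14 genes and searched on both strands for TCACGTGA, a palindrome at the centre of the motif to which the lysosomal regulator TFEB binds. It was found in 2 of the 12 windows (16.7%), against 0.867% of 27457 windows, 1 per gene. Both are shown from 160 bases before the start to the base before it, 5′ to 3′ on the gene's strand with matches in capitals, to show where the letters lie. They come from chr1:206968822-206968981 (minus strand) for Ctsd and from chr16:83075064-83075223 (minus strand) for Lamp1.
Ctsd: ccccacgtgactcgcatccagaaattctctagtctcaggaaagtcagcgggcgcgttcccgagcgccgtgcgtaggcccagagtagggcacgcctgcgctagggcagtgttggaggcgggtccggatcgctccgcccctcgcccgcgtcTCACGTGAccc
Lamp1: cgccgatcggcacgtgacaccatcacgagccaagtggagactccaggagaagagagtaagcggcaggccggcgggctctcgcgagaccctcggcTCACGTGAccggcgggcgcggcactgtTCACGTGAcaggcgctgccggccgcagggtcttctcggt
The match starts 11 bases before the start of Ctsd, and 66 and 39 bases before that of Lamp1. The member with 2 matches was the 1 of the 14 that was not called.

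The 10 higher calls with the smallest adjusted p were Gpnmb, Tgif1, Clec7a, Cd8b, Unc93b1, Arl11, Cd68, Grn, Cebpa and Dnase2. Grn, which encodes the lysosomal protein progranulin, was measured at 52.6, 80.3, 69.6 and 85.8 CPM in Intact and 876 and 639 CPM in +PBS-2w (3.39 ± 0.22, adjusted p = 7.67e-10). The lysosomal nuclease Dnase2 rose by 2.97, Unc93b1, which carries nucleic acid-sensing receptors to the endosome, by 2.80, and the macrophage GTPase Arl11 by 4.14. Cebpa, a transcription factor of myeloid cells, was at 108 and 84.8 CPM in +PBS-2w against 7.48, 10.3, 9.30 and 14.6 CPM in Intact (3.20 ± 0.21, adjusted p = 7.67e-10), and the repressor Tgif1 at 19.8 and 17.1 CPM in +PBS-2w against 3.55, 4.44, 3.70 and 4.29 CPM in Intact (2.20 ± 0.13). The fold of Tgif1 was the smallest of the 10 and had the smallest SE.

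Complement genes were mostly higher, 15 of 18 tested, with a median of 2.62, and 14 were called without replicate 1. C1qa, C1qb and C1qc encode the chains of C1q, which starts the classical pathway. C1qa was measured at 58, 84.2, 78 and 108 CPM in Intact and 1160 and 762 CPM in +PBS-2w (3.55 ± 0.32, adjusted p = 3.51e-08), and C1qb and C1qc rose by 3.68 and 3.81. The C1 inhibitor Serping1 rose by 3.28, the receptor chains Itgam and Itgb2 by 2.50 and 3.60, and the receptors C3ar1 and C5ar1 by 2.78 and 2.23. C3, the component on which all routes meet, was at 455 and 354 CPM in +PBS-2w against 135, 217, 133 and 249.8 CPM in Intact and did not pass (1.14 ± 0.59, adjusted p = 0.137), although both vehicle libraries were above all Intact libraries. C4a and C4b are close copies of each other, so their counts are uncertain.

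Chemokines that draw in monocytes rose. Of 16 cytokines, chemokines and receptors tested, 8 were higher and none lower, with 6 higher without replicate 1. Ccl3 and Ccl4, which act on monocytes and T cells, were at 6.08 and 3.59 CPM in +PBS-2w against 0, 0.183, 0.324 and 0.266 CPM in Intact and at 7.36 and 4.97 CPM in +PBS-2w against 0.0546, 0.229, 0.185 and 0.342 CPM in Intact (4.56 ± 0.47 and 4.84 ± 0.50). Ccl2, the main attractant of monocytes, was at 6.18 and 4.41 CPM in +PBS-2w against 0.109, 0.596, 0.555 and 0.722 CPM in Intact (3.37 ± 0.56), and Cxcl10, an interferon-induced chemokine, at 14.8 and 14.6 CPM in +PBS-2w against 0.764, 1.56, 0.694 and 0.988 CPM in Intact (3.86 ± 0.43). The Intact levels of these genes rest on few reads, 18 in all for Ccl3 and 19 for Ccl4. Il1b and Il6 did not pass, at 1.54 and 0.812 CPM in +PBS-2w against 0.437, 0.825, 0.278 and 0.76 CPM in Intact and at 0.096 and 0.188 CPM in +PBS-2w against 0.0546, 0.0916, 0.0463 and 0.038 CPM in Intact, and Tnf had 0 or 1 read in each of the 6 libraries.

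Interferon-stimulated genes rose together, 10 of 10 tested, with a median of 2.35. Without replicate 1 the count was 5. The antiviral GTPase Mx1 was measured at 2.89, 4.99, 4.02 and 9.46 CPM in Intact and 102 and 61.4 CPM in +PBS-2w (3.92 ± 0.55, adjusted p = 1.2e-05). Irf7, the transcription factor that amplifies the interferon response, stood at 112 and 79.4 CPM in +PBS-2w against 6.38, 18.6, 9.57 and 12.2 CPM in Intact (3.03 ± 0.52, adjusted p = 0.000129), and Rsad2, the antiviral enzyme viperin, at 67.5 and 42.8 CPM in +PBS-2w against 3.49, 9.03, 3.15 and 14.7 CPM in Intact (2.85 ± 0.56). Ifit3 rose by 2.55 and Oas1a, which makes the messenger that activates RNase L, by 1.81. Paralogs in the Oas, Ifit and Mx families may share reads. Promoter windows of 6 of the 10 genes were searched on both strands for the core of the interferon-stimulated response element, the letters GAAA repeated with any 2 bases between them, which may overlap itself. It was present in 4 of the 6 (66.7%) and in 3.77% of all windows. The 4 stretches with a match are shown in the same way, with the matches in capitals on whichever strand they lie. Whether the letters bear on the rise was not tested. They come from chr1:241527166-241527325 (plus strand) for Ifit3, chr12:41330306-41330465 (plus strand) for Oas1a, chr1:205800024-205800183 (minus strand) for Irf7 and chr6:48788121-48788280 (minus strand) for Rsad2.
Ifit3: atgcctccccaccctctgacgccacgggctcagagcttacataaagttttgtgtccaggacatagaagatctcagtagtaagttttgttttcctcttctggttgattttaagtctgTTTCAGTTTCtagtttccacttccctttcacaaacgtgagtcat
Oas1a: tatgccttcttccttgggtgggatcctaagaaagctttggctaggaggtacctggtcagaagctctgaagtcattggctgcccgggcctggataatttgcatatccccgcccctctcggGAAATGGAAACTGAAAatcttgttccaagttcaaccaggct
Irf7: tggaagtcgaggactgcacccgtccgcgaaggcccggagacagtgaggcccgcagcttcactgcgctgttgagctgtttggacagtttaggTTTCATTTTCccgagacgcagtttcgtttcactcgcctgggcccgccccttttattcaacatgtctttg
Rsad2: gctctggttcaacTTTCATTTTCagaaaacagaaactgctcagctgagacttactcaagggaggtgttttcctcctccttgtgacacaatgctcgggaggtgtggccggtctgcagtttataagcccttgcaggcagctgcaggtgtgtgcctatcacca
In Oas1a the letters occur in overlapping copies, which begin 41 and 35 bases before the start, and in Ifit3, Irf7 and Rsad2 they occur on the opposite strand, 44, 69 and 147 bases before it. Mx1 and Oasl had no match, which says only that these letters are not in their windows.

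Among lymphocyte genes the 2 chains of CD8 stood apart. Cd8a and Cd8b encode its alpha and beta chains, which cytotoxic T cells carry and which in rats have also been seen on macrophages. Cd8a was measured at 0.164, 0.366, 0.185 and 0.532 CPM in Intact and 33.8 and 12.5 CPM in +PBS-2w (6.13 ± 0.52, adjusted p = 1.87e-08) and Cd8b at 0.0546, 0.183, 0.0463 and 0.114 CPM in Intact and 17.9 and 10.5 CPM in +PBS-2w (7.06 ± 0.43, adjusted p = 4.82e-10). The Intact levels of Cd8b rest on 9 reads in all. Cd3d, Cd3e and Cd3g, the chains of the T cell receptor complex, were at 0.288 and 0.156 CPM, 1.41 and 0.656 CPM and 0.992 and 0.562 CPM in +PBS-2w, with 7, 9 and 14 reads in Intact in all, and were not called. Of the 13 lymphocyte genes tested, Cd8a and Cd8b were the 2 called higher, against 8.84% of all genes tested. The B cell genes Ms4a1 and Cd79b were under 1 CPM in both vehicle libraries. None of 8 MHC class II genes was called. Cd74, the invariant chain that guides these molecules, was at 306 and 89.9 CPM in +PBS-2w against 24.9, 63.6, 82.3 and 81.6 CPM in Intact (1.65 ± 0.74, adjusted p = 0.0861). Replicate 1 was far above Intact while replicate 2 lay close to the highest Intact library, and the list's median difference from Intact was 2.17 in replicate 1 and 0.56 in replicate 2.

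Cholesterol synthesis genes had the highest share of lower calls among the lists. Of 16 genes tested, 15 were lower in +PBS-2w, with a median of -2.0, and 15 were lower whichever vehicle library was left out. Both vehicle libraries lay below all Intact libraries for each of the 16, as for every gene called lower and 31.3% of all genes tested. Hmgcs1, an early enzyme of the pathway, was measured at 987, 1065, 782 and 787 CPM in Intact and 82.2 and 111 CPM in +PBS-2w (-3.23 ± 0.35, adjusted p = 4.91e-07). Fdft1, the first enzyme that makes only sterols, was at 37.3 and 43.1 CPM in +PBS-2w against 254, 255, 219 and 224 CPM in Intact (-2.56 ± 0.24, adjusted p = 7.82e-08), and Msmo1, a sterol demethylase, at 59.9 and 60.6 CPM in +PBS-2w against 284, 283, 255 and 248 CPM in Intact (-2.15 ± 0.19, adjusted p = 3.2e-08). The 2 vehicle libraries differed by a median of 0.32 on the log2 scale in this list. That median was 0.4 to 0.94 in the neuronal lists and 0.25 over all genes tested. The list's median difference from Intact was -2.16 in replicate 1 and -1.96 in replicate 2.

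The log2 fold change was -2.39 for Idi1, which acts before Fdft1, and -2.02 for Sqle, which acts after it. It was -2.29 for Insig1, which holds the sterol sensor in the endoplasmic reticulum. Dhcr7, which makes cholesterol itself, was the member that did not pass, at 40.3 and 25.4 CPM in +PBS-2w against 64.8, 79.3, 58.9 and 61.8 CPM in Intact (-1.01 ± 0.39, adjusted p = 0.0455). The 10 genes with the smallest adjusted p among the lower calls were Acat2, Msmo1, Fdft1, Nsdhl, Hsd17b7, Aacs, Sqle, Insig1, Sc5d and Scd. All 10 act in the synthesis, or in the control of the synthesis, of sterols or fatty acids. Acat2, which joins acetyl units, was at 9.80 and 15.6 CPM in +PBS-2w against 81.3, 82.5, 69.3 and 75.3 CPM in Intact (-2.60 ± 0.22, adjusted p = 1.95e-08), and Scd, which makes oleic acid, at 23.3 and 18.5 CPM in +PBS-2w against 195, 246, 200.2 and 209.5 CPM in Intact (-3.35 ± 0.37). Promoter windows of 11 of the 16 genes held no match (0%) to TCACNCCAC, a sterol regulatory element, on either strand, against 1.13% of all windows, which says only that these letters are not in the windows.

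**Figure D2:**
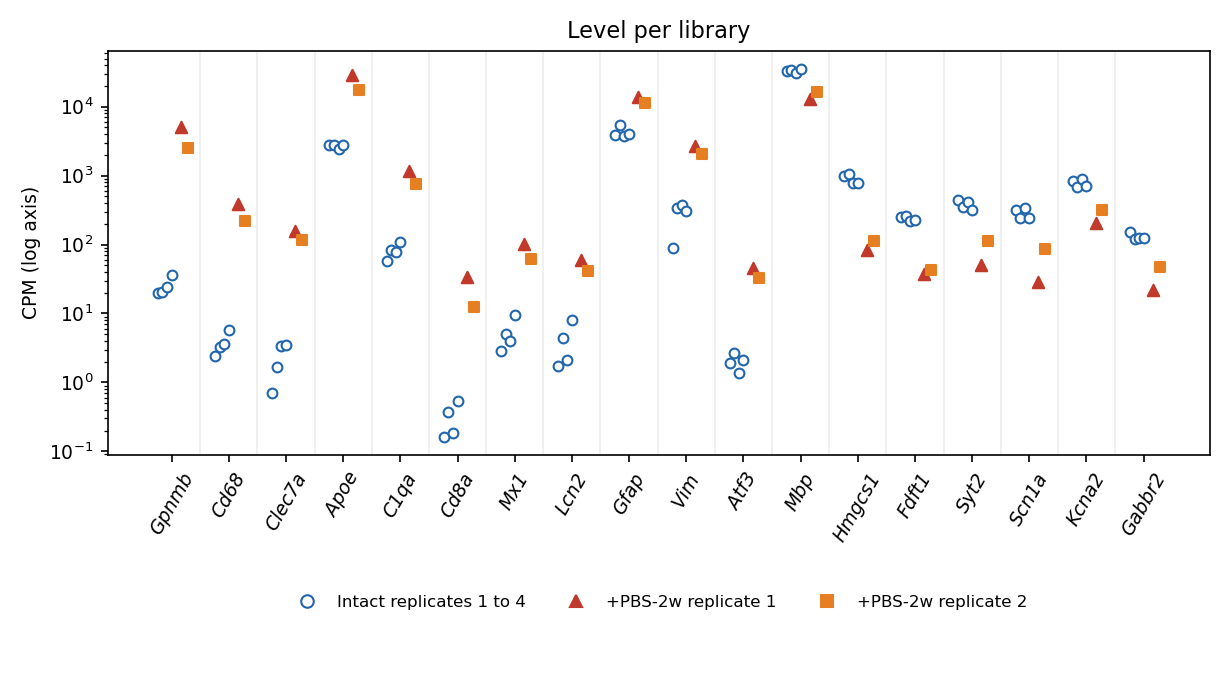
CPM on a log axis for 18 genes, with the 4 Intact libraries as open circles, +PBS-2w replicate 1 as triangles and replicate 2 as squares. For each of these genes the 2 vehicle libraries lie outside the Intact range, above it from Gpnmb to Atf3 and below it from Mbp to Gabbr2.

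Of 15 neuron markers, 5 were lower. All 15 had negative log2 fold changes, with a median of -1.49. For 14 of them both vehicle libraries lay below all Intact libraries, as for every gene called lower. The shares over all genes tested were 31.3% below that range and 5.66% called lower. The 5 that passed were Rbfox3, Ina, Syt1, Celf4 and Map2. Rbfox3, the nuclear antigen NeuN of mature neurons, was measured at 76.1, 64, 74.6 and 62.8 CPM in Intact and 11.6 and 20.9 CPM in +PBS-2w (-2.09 ± 0.43, adjusted p = 0.000821). Map2, a protein of dendrites, was at 363 and 579 CPM in +PBS-2w against 1319, 1151, 1401 and 1132 CPM in Intact (-1.41 ± 0.29, adjusted p = 0.000818). The neurofilament gene Nefl was at 719 and 1517 CPM in +PBS-2w against 3502, 3622, 3230 and 2976 CPM in Intact, and its fold change of -1.58 ± 0.58 missed the threshold (adjusted p = 0.0369). Replicate 1 was lower than replicate 2 in each of these 3 genes. Without replicate 1 none of the 15 was called, and without replicate 2 there were 4.

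Presynaptic genes were lower at 13 of 18 tested, with a median of -1.68. Both vehicle libraries lay below all Intact libraries at each of the 18, as for every gene called lower and 31.3% of all genes tested. Syt2, the calcium sensor of fast synapses in the cord, was measured at 438, 348, 419.8 and 320.2 CPM in Intact and 50.6 and 111 CPM in +PBS-2w (-2.24 ± 0.46, adjusted p = 0.000688). Rims1, a scaffold of the release site, was at 7.17 and 19.6 CPM in +PBS-2w against 60.7, 58.2, 60.4 and 53.1 CPM in Intact (-2.12 ± 0.41), and Cplx2, a regulator of vesicle fusion, at 28.3 and 42.3 CPM in +PBS-2w against 94.3, 104, 95.7 and 81.4 CPM in Intact (-1.41 ± 0.20, adjusted p = 1.16e-05). The vesicle protein Vamp2 was nearest to Intact, at 144 and 193 CPM in +PBS-2w against 244, 263, 248 and 236 CPM in Intact (-0.56 ± 0.19), and was not called. The count was 2 without replicate 1 and 12 without replicate 2.

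Voltage-gated channel subunits were lower at 22 of 28 tested. All 28 had both vehicle libraries below every Intact library, as had every gene called lower and 31.3% of all genes tested. The list's median log2 fold change was -1.53. The sodium channel Scn1a was at 29 and 87 CPM in +PBS-2w against 313, 246, 337 and 247 CPM in Intact (-2.30 ± 0.51, adjusted p = 0.00146), and Scn8a, the channel of the axon initial segment and nodes, at 39.6 and 88.1 CPM in +PBS-2w against 305, 233, 304 and 220.2 CPM in Intact (-2.06 ± 0.41). Kcna2, the potassium channel beside the nodes, was at 206 and 319 CPM in +PBS-2w against 828, 682, 898 and 698 CPM in Intact (-1.56 ± 0.24, adjusted p = 4.31e-05). In these 3 genes replicate 1 was the lower vehicle library. Among calcium channel subunits, Cacna1a gave -1.03 and Cacna1g -1.24, both called. Scn9a, which sensory neurons use, gave -0.49 ± 0.38 and was not called. The count was 3 without replicate 1 and 20 without replicate 2.

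Receptors of inhibitory transmission were lower in part. Of 20 GABA receptor subunits tested, 6 were lower and 1 was higher, with a median of -1.15. The shares over all genes tested were 5.66% lower and 8.84% higher. Gabbr2, a GABA-B receptor subunit, was at 21.7 and 46.8 CPM in +PBS-2w against 153, 120.1, 124 and 126 CPM in Intact (-1.93 ± 0.33, adjusted p = 0.00013). Gabra3 and Gabrb2, subunits of GABA-A receptors, were also lower, with -1.93 ± 0.43 and -2.42 ± 0.65. Gabra5, a subunit of receptors outside synapses, was at 6.85 and 18.8 CPM in +PBS-2w against 56.8, 47.5, 49.1 and 44.6 CPM in Intact and missed the threshold (-1.95 ± 0.61, adjusted p = 0.0162). Gabra2 and Gabrg1 stayed nearer to Intact, with -0.37 ± 0.35 and -0.37 ± 0.28, and were not called. Gabrr2, a rho subunit best known from the retina, was the subunit that rose, at 1.54 and 1.53 CPM in +PBS-2w against 0, 0.0458, 0.139 and 0.304 CPM in Intact (3.50 ± 0.53), with 12 reads in Intact in all.

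Of 11 genes of glycine receptors and inhibitory transmitter handling, 4 were lower, against 5.66% of all genes tested. They were Glra1, Glra2, Glrb and Slc12a5. Glra1 and Glrb, the subunits of adult glycine receptors, were at 19.6 and 43 CPM in +PBS-2w against 158, 137, 165 and 110.2 CPM in Intact and at 82.3 and 138 CPM in +PBS-2w against 320.5, 272, 284 and 252 CPM in Intact (-2.19 ± 0.43 and -1.35 ± 0.33). Slc12a5, the chloride exporter KCC2 that keeps these receptors inhibitory, was measured at 486, 398, 443 and 385 CPM in Intact and 77.6 and 140.3 CPM in +PBS-2w (-1.97 ± 0.47, adjusted p = 0.00259). The GABA-making enzymes Gad1 and Gad2 gave -1.34 ± 0.52 and -1.37 ± 0.50 and were not called, with replicate 1 the lower library in both. Ionotropic glutamate receptor subunits were lower at 6 of 16 tested, among them the AMPA receptor subunit Gria2 (-1.32 ± 0.33) and the NMDA receptor subunit Grin2d, at 15.3 and 19.4 CPM in +PBS-2w against 48.5, 52.5, 46.8 and 47.9 CPM in Intact (-1.49 ± 0.21, adjusted p = 1.54e-05). Without replicate 1, 1 glutamate subunit, no GABA subunit and none of the 11 glycinergic and inhibitory genes was called lower. The 6 glutamate subunits fell to 2 calls without replicate 2 and to 3 without Intact replicate 1, 2 or 3.

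None of 6 motor neuron genes was called, and their median was -0.70. Chat, which makes acetylcholine, gave -0.62 ± 0.46, and its vesicular transporter Slc18a3 was at 43.8 and 71.5 CPM in +PBS-2w against 55.7, 96.5, 74.2 and 59.1 CPM in Intact, with overlapping groups. The 2 vehicle libraries differed in a pair of Hox genes. Hoxc10 and Hoxd10, genes of lumbar segments, were at 4.90 and 23.4 CPM and 0.032 and 4.50 CPM in +PBS-2w, against 40.8, 22.5, 21.3 and 24.6 CPM and 2.78, 0.0458, 0.0925 and 0.304 CPM in Intact. Replicate 2, which had the higher neuronal levels, was also the higher in both. The part of segment level in the neuronal differences was not tested. None of 13 neuropeptide genes was called, and Calca, which sensory fibres and motor neurons use, was at 89.2 and 52.3 CPM in +PBS-2w against 37, 39, 19.3 and 14.5 CPM in Intact, above Intact in both libraries (1.37 ± 0.57, adjusted p = 0.0661).

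**Figure D3:**
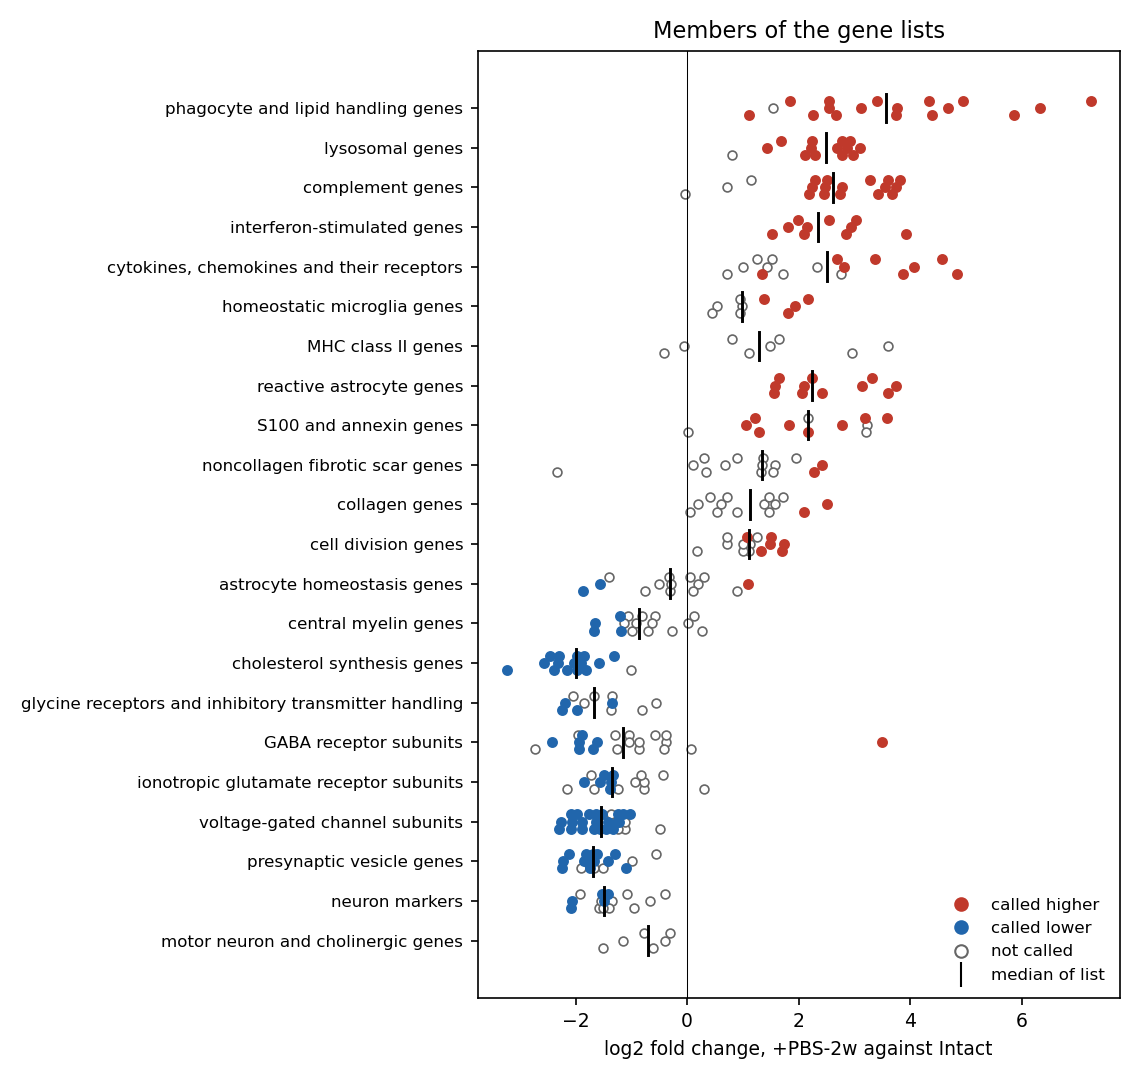
Log2 fold changes of +PBS-2w against Intact for the tested members of 22 gene lists, 1 point a gene, filled where called, with a black bar at the median of each list. The list medians run from 3.57 for phagocyte and lipid handling genes to -2.0 for cholesterol synthesis genes.

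Central myelin genes were lower at 4 of 16 tested. Ugt8 and Fa2h, which make the galactolipids of myelin, were at 236 and 296 CPM in +PBS-2w against 863, 848, 759.7 and 899 CPM in Intact and at 105 and 129 CPM in +PBS-2w against 389, 399.8, 315 and 363 CPM in Intact (-1.66 ± 0.35 and -1.65 ± 0.27). Mbp, myelin basic protein, was measured at 32980, 34570, 31210 and 35080 CPM in Intact and 13060 and 16210 CPM in +PBS-2w (-1.19 ± 0.33, adjusted p = 0.00829). Mag, an adhesion protein of the myelin sheath, gave -0.57 ± 0.31 and was not called. The list's median was -0.87. The lineage gene Olig2 gave -0.54 ± 0.30, and of 9 precursor genes only C1ql1 was called, at 127 and 101 CPM in +PBS-2w against 38.6, 50.1, 35.4 and 44.7 CPM in Intact (1.43 ± 0.32). Ermn, a protein of the myelin sheath, was the fourth that was lower (-1.20 ± 0.27). The call of Mbp was lost when any 1 of the 6 libraries was left out. Without replicate 1, 1 myelin gene was lower and no precursor gene was called. Of all genes tested, 8.84% were called higher and 5.66% lower.

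All 11 reactive astrocyte genes tested were higher, with a median of 2.24. For each both vehicle libraries lay above every Intact library, as for every gene called higher and 31.1% of all genes tested. Gfap, the intermediate filament of astrocytes, was measured at 3868, 5415, 3795 and 4057 CPM in Intact and 13630 and 11500 CPM in +PBS-2w (1.55 ± 0.31, adjusted p = 0.00051), and Vim, vimentin, at 89.4, 336, 372 and 304 CPM in Intact and 2732 and 2087 CPM in +PBS-2w (3.13 ± 0.35, adjusted p = 7.52e-07). Lcn2, the iron-binding protein lipocalin, was at 60.0 and 40.6 CPM in +PBS-2w against 1.75, 4.40, 2.08 and 8.13 CPM in Intact (3.60 ± 0.81), Cp, the copper oxidase ceruloplasmin, at 701 and 533 CPM in +PBS-2w against 33.6, 66.4, 79.4 and 69.4 CPM in Intact (3.31 ± 0.33), and Cd44, a receptor for hyaluronan, at 199 and 141 CPM in +PBS-2w against 30.3, 41.7, 44.1 and 42.5 CPM in Intact (2.1 ± 0.21). Vim and Cd44 are also made by macrophages and fibroblasts. Without replicate 1, 7 of the 11 were called.

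Genes of resting astrocyte function were mostly not called, where 8.84% of all genes tested were called higher and 5.66% lower. Of 14 tested, 2 were lower, the GABA transporter Slc6a11 at 48.6 and 62.8 CPM in +PBS-2w against 243, 200.5, 193 and 180.3 CPM in Intact (-1.87 ± 0.36) and the potassium channel Kcnj10 at 75 and 86 CPM in +PBS-2w against 209, 222, 279 and 239.7 CPM in Intact (-1.56 ± 0.34), and Mlc1, a protein of the astrocyte end foot, was higher at 1104 and 1010 CPM in +PBS-2w against 508, 484, 478 and 523 CPM in Intact (1.09 ± 0.29). The call of Mlc1 was lost when any 1 of the 6 libraries was left out, those of Slc6a11 and Kcnj10 without replicate 1, and that of Kcnj10 also without replicate 2. The glutamate transporter Slc1a2 gave -1.4 ± 0.45 (adjusted p = 0.0191), and the water channel Aqp4 was at 2376 and 2514 CPM in +PBS-2w against 2063, 2010, 1890 and 1949 CPM in Intact (0.31 ± 0.27) and not called. Among 11 proteoglycan and link genes, the 2 that fell build the nets around neurons. Acan, aggrecan, was at 5.83 and 8.65 CPM in +PBS-2w against 31.8, 31.2, 32.4 and 31.2 CPM in Intact (-2.13 ± 0.34, adjusted p = 5.76e-05) and Hapln1, its link protein, at 2.40 and 7.47 CPM in +PBS-2w against 38.1, 25.2, 30.2 and 27.8 CPM in Intact (-2.62 ± 0.67). Hapln1 was not called without replicate 1 or without Intact replicate 1. Ncan and Tnc, matrix proteins of the glial scar, were at 170.5 and 147 CPM in +PBS-2w against 98.4, 83.7, 77.5 and 73.3 CPM in Intact and at 31.9 and 23.2 CPM in +PBS-2w against 7.04, 7.15, 9.39 and 16.4 CPM in Intact and were not called.

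Most genes of the fibrous matrix were not called, although most were positive. All 14 collagens were positive, with a median log2 fold change of 1.13, and 13 of 14 other scar genes, with a median of 1.34. With all replicate 1 libraries left out these medians were 0.55 and 0.56. Of all genes tested, 8.84% were called higher. Col1a1 and Col3a1, the chains of fibrillar collagen, were at 626 and 384 CPM in +PBS-2w against 16.2, 139.8, 209 and 418 CPM in Intact and at 703 and 443 CPM in +PBS-2w against 9.33, 132, 458 and 229.6 CPM in Intact, and neither passed (1.37 ± 0.71 and 1.47 ± 0.83). Intact replicate 1, the lowest library in meningeal and root genes, was far below the other Intact libraries in both. Of 14 collagens 2 were called, Col18a1 (2.09 ± 0.47) and Col15a1 (2.51 ± 0.62), and neither without replicate 1. Of 14 other scar genes the 2 called were Thbs2, a matrix regulator, at 194 and 180.4 CPM in +PBS-2w against 14.6, 26.9, 53.1 and 45.3 CPM in Intact (2.42 ± 0.49) and Fmod, a small proteoglycan, at 151 and 152 CPM in +PBS-2w against 6.77, 37, 47.1 and 34.2 CPM in Intact (2.27 ± 0.41). Fn1 was at 568 and 561 CPM in +PBS-2w against 96, 213, 326 and 242 CPM in Intact (1.36 ± 0.57) and not called. The part of meningeal and root tissue in these levels was not tested.

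Of 14 matrix proteases and inhibitors, 5 were higher, Adamts1, Mmp12, Mmp14, Mmp19 and Timp1. Without replicate 1 there were 3, the calls of Adamts1 and Mmp14 being lost. Mmp12, the elastase of macrophages, was at 18.4 and 12.8 CPM in +PBS-2w against 0, 0, 0.0463 and 0.076 CPM in Intact, with 3 reads in Intact in all against 984, so no fold is given. Mmp19 was at 47.5 and 34.2 CPM in +PBS-2w against 5.35, 6.55, 7.45 and 8.13 CPM in Intact (2.57 ± 0.23, adjusted p = 3.89e-08), Mmp14 rose by 2.0 and the inhibitor Timp1 by 3.17 on the log2 scale. Anpep, an aminopeptidase of pericytes that myeloid cells also make, was the 1 gene called of 7 pericyte genes, at 162 and 90.0 CPM in +PBS-2w against 4.31, 9.39, 12.4 and 11.8 CPM in Intact (3.72 ± 0.52). Vessel genes had a median of 0.13 over 12 tested, of which only Mfsd2a, the lipid transporter of the blood-brain barrier, was called, at 16 and 26.3 CPM in +PBS-2w against 56, 68.1, 59 and 54 CPM in Intact (-1.48 ± 0.43), and its call was lost when any 1 of the 6 libraries was left out. For comparison, 8.84% of all genes tested were called higher and 5.66% lower. Cldn5 was at 0 in all 6 libraries in this table and was not tested.

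Of 12 S100 and annexin genes 8 were higher, among them S100a4 at 181 and 104 CPM in +PBS-2w against 13.7, 16.3, 14.6 and 18.2 CPM in Intact (3.18 ± 0.28) and Anxa1, an annexin that restrains inflammation, at 132 and 106 CPM in +PBS-2w against 4.47, 13.9, 23.2 and 27.5 CPM in Intact (2.78 ± 0.44). Without replicate 1 there were 5. For comparison, 8.84% of all genes tested were called higher with all libraries. S100a8 and S100a9, proteins of neutrophils, were at 161 and 140.3 CPM in +PBS-2w against 2.62, 13.1, 5.64 and 42.3 CPM in Intact and at 194 and 192 CPM in +PBS-2w against 3.44, 18, 6.66 and 54.8 CPM in Intact and were not called, with adjusted p = 0.013 and 0.0128. Intact replicate 4 was the highest Intact library for both. Of 11 TGF-beta genes 5 were higher, the ligand Tgfb1 at 136 and 125 CPM in +PBS-2w against 13.3, 23.6, 18.1 and 26.4 CPM in Intact (2.67 ± 0.21, adjusted p = 9.24e-09), its receptors Tgfbr1 (2.32 ± 0.23) and Tgfbr2 (1.96 ± 0.39), the signal carrier Smad3 (1.28 ± 0.21) and Tgif1. The ligands Tgfb2 and Tgfb3 gave 0.48 ± 0.23 and 0.22 ± 0.33. Of the iron genes, the heme-degrading enzyme Hmox1, at 104 and 66.3 CPM in +PBS-2w against 15.1, 13.7, 14.8 and 19.4 CPM in Intact (2.43 ± 0.27), the metal transporter Slc11a1 (2.41 ± 0.33) and the ferritin chain Ftl1 (2.74 ± 0.36) were higher, 3 of 10 tested.

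Of 10 genes associated with axon regeneration 4 were higher, and 2 without replicate 1. Over all genes tested, 8.84% were called higher and 5.66% lower. Atf3, a transcription factor of injured neurons and other stressed cells, was at 45 and 32.3 CPM in +PBS-2w against 1.91, 2.70, 1.39 and 2.09 CPM in Intact (4.25 ± 0.40, adjusted p = 7.17e-08), and Gadd45a and Klf6 rose by 1.65 and 1.4. Sprr1a, which regrowing neurons make, was the fourth, at 0.672 and 0.687 CPM in +PBS-2w against 0.0546, 0, 0 and 0 CPM in Intact, with 1 read in Intact in all against 43, so no fold is given. Gap43, the growth cone protein, was at 129 and 135 CPM in +PBS-2w against 125, 116, 111 and 111 CPM in Intact (0.19 ± 0.30) and not called. Of 11 neurotrophic genes, Igf1 and Lif were higher (2.81 ± 0.41 and 1.55 ± 0.43), the call of Lif being lost when any 1 of the 6 libraries was left out, whereas Bdnf, at 1.99 and 4.62 CPM in +PBS-2w against 3.27, 2.38, 2.13 and 3.15 CPM in Intact, and Gdnf, at 0.16 and 0.188 CPM in +PBS-2w against 0.327, 0.366, 0.231 and 0.266 CPM in Intact, were not called. Among 7 immediate early genes Fos, Junb, Egr1 and Ier2 were higher and Arc, which neurons switch on with activity, was lower, at 1.73 and 3.0 CPM in +PBS-2w against 7.31, 9.21, 7.59 and 8.59 CPM in Intact (-1.79 ± 0.46). The call of Arc was lost without either vehicle library and without Intact replicate 2. Of 14 cell division genes 6 were higher, with Top2a at 22.2 and 10.7 CPM in +PBS-2w against 3.38, 5.86, 2.04 and 8.78 CPM in Intact (1.70 ± 0.46). The count was 1 without replicate 1 and 3 without Intact replicate 1, 2 or 3. None of 9 mitochondrially encoded genes was called, although all 9 were negative, with a median of -0.68.

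Several genes with the largest fold changes belong to none of the lists above. Fcrl2, an Fc receptor-like protein, was at 152 and 36.5 CPM in +PBS-2w against 0.164, 0.458, 0.601 and 0.304 CPM in Intact (7.92 ± 0.79), Ifitm1, an interferon-induced membrane protein, at 218 and 97.5 CPM in +PBS-2w against 0.491, 2.38, 1.76 and 1.86 CPM in Intact (6.57 ± 0.50), Lilrb4, an inhibitory receptor of myeloid cells, at 196 and 117 CPM in +PBS-2w against 0.273, 1.33, 3.47 and 4.41 CPM in Intact (6.01 ± 0.69), and Sost, the bone protein sclerostin, at 14.9 and 7.91 CPM in +PBS-2w against 0, 0, 0.139 and 0.228 CPM in Intact with 9 reads in Intact in all. On the lower side were Kcnh7, a potassium channel, at 0.352 and 1.22 CPM in +PBS-2w against 6.17, 4.49, 6.99 and 5.02 CPM in Intact (-2.84 ± 0.51), Ndst4, a heparan sulfate enzyme, at 1.25 and 2.03 CPM in +PBS-2w against 10.5, 8.70, 12.9 and 8.36 CPM in Intact (-2.62 ± 0.38), Slc13a5, a citrate transporter, at 1.67 and 2.34 CPM in +PBS-2w against 15, 9.85, 10.7 and 12.7 CPM in Intact (-2.59 ± 0.43), and Rtkn2 at 4.99 and 3.28 CPM in +PBS-2w against 22.5, 26.6, 23.4 and 26.6 CPM in Intact (-2.58 ± 0.45).

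The called genes on which the 2 vehicle libraries differed most were named by rule, 6 in each direction. Among the higher ones, Cd22, a receptor of microglia and B cells, was at 83.6 and 15.2 CPM against 1.39 to 3.04 CPM in Intact, the inhibitory receptor Lilrb3 at 41.9 and 9.19 CPM against 0.709 to 5.55 CPM, the complement component C6 at 24.3 and 6.53 CPM against 0.546 to 4.49 CPM, and Col15a1 at 15.1 and 3.72 CPM against 0.327 to 2.70 CPM. Fcrl2 is given above, and in all 5 replicate 1 was the higher. Mdga1, a synaptic adhesion protein, was the exception in that replicate 2 was the higher, 16.3 and 60.3 CPM against 6.99 to 9.16 CPM. Among the lower ones, Mlnr, Cntnap4, Cdh7, Ankrd34b, Esrrg and Gpr45 were each lower in replicate 1, for example Esrrg, a nuclear receptor of neurons, at 7.75 and 23.9 CPM against 43.8 to 61.1 CPM.

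To place this stage in the course of the injury, +PBS-2w was compared with injured cord at the time of injection (sub-SCI, 3 libraries, day 7) and with vehicle cord at 1 and 4 weeks after injection (+PBS-1w, 3 libraries, and +PBS-4w, 4 libraries). These comparisons and the one with Intact share the +PBS-2w libraries. Against sub-SCI, 600 genes were higher (3.34%) and 378 lower (2.1%), 978 (5.44%) in all. A fit of these 2 groups alone in edgeR gave 0 and 0, so the calls against sub-SCI, here and by list, rest on the spread shared over all groups. Without +PBS-2w replicate 1 there were 372 and 282, without replicate 2 there were 85 and 13, and without sub-SCI replicate 3 there were 174 and 155. The genes with the smallest adjusted p were Pygb, Insyn2, Maob and Clu among the higher and Dsn1, Ninj1, Ctsl and Sdc1 among the lower. Clu, the chaperone clusterin, was at 1104 ± 71.2 CPM (mean ± SD) in sub-SCI, 3542 and 3389 CPM in +PBS-2w and 1140 to 1276 CPM in Intact. Sdc1, a heparan sulfate proteoglycan, went the other way, from 107 ± 25.7 CPM to 16.1 and 12.9 CPM, against 2.02 to 5.21 CPM in Intact.

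By list, the counts against sub-SCI were highest for astrocyte, cilia, cell division and channel genes. Among all genes tested, 3.34% were higher than in sub-SCI and 2.1% lower. Of 14 astrocyte homeostasis genes 8 were higher than in sub-SCI, with Aqp4 at 720.3 ± 254 CPM there (1.76 ± 0.29, adjusted p = 0.000479), and 6 of 9 motile cilia genes were higher, with Hydin at 4.86 ± 2.78 CPM against 25.2 and 20.9 CPM (2.25 ± 0.44). Of 14 cell division genes 12 were lower, with Top2a at 99.8 ± 33 CPM (-2.60 ± 0.54). Of the neuronal lists, 8 of 28 channel subunits, 5 of 20 GABA receptor subunits and 4 of 18 presynaptic genes were higher than in sub-SCI. So were 4 of 11 glycine receptor and inhibitory transmitter genes, 2 of 6 motor neuron genes, 2 of 16 glutamate receptor subunits and 1 of 15 neuron markers. Of 13 neuropeptide genes 0 were higher and 1 was lower. Syt2 was at 17.6 ± 10.5 CPM in sub-SCI (2.20 ± 0.43, adjusted p = 0.00172). Tnc was at 645 ± 280.5 CPM (-4.55 ± 0.70) and Cd8a at 168 ± 9.89 CPM (-2.86 ± 0.49), both lower in +PBS-2w. No cholesterol synthesis, interferon-stimulated or phagocyte and lipid handling gene was called against sub-SCI. Hmgcs1, for example, was at 127 ± 51.7 CPM in sub-SCI and Gpnmb at 6082 ± 578 CPM.

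Between +PBS-2w and the neighbouring vehicle stages no gene was called. Against +PBS-1w 0 genes (0%) were higher or lower by edgeR, with 832 higher and 745 lower at an unadjusted p under 0.05 and 0.185 as the smallest adjusted p. DESeq2 on all libraries called 2 higher and 9 lower there. Against +PBS-4w the count was 0 (0%) as well, with 303 higher and 430 lower at an unadjusted p under 0.05, and DESeq2 on all libraries called none. Gpnmb stood at 4289 ± 1927 CPM in +PBS-1w and 3472 ± 1313 CPM in +PBS-4w, Hmgcs1 at 90.2 ± 21 CPM and 134 ± 39 CPM, and Syt2 at 43.7 ± 16.6 CPM in +PBS-1w and 38.5 to 71 CPM over the 4 libraries of +PBS-4w. The log2 fold change of Gpnmb was -0.17 ± 0.39 against +PBS-1w and 0.13 ± 0.37 against +PBS-4w, and that of Syt2 0.88 ± 0.42 and 0.69 ± 0.40. The missing calls do not show that the stages were alike. The genes with the smallest p were Acacb and Igsf1 (higher) and Ninj1 and Sdc1 (lower) against +PBS-1w, and Mroh8 and Fpr1 (higher) and Per1 and Rasl11b (lower) against +PBS-4w.

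**Figure D4:**
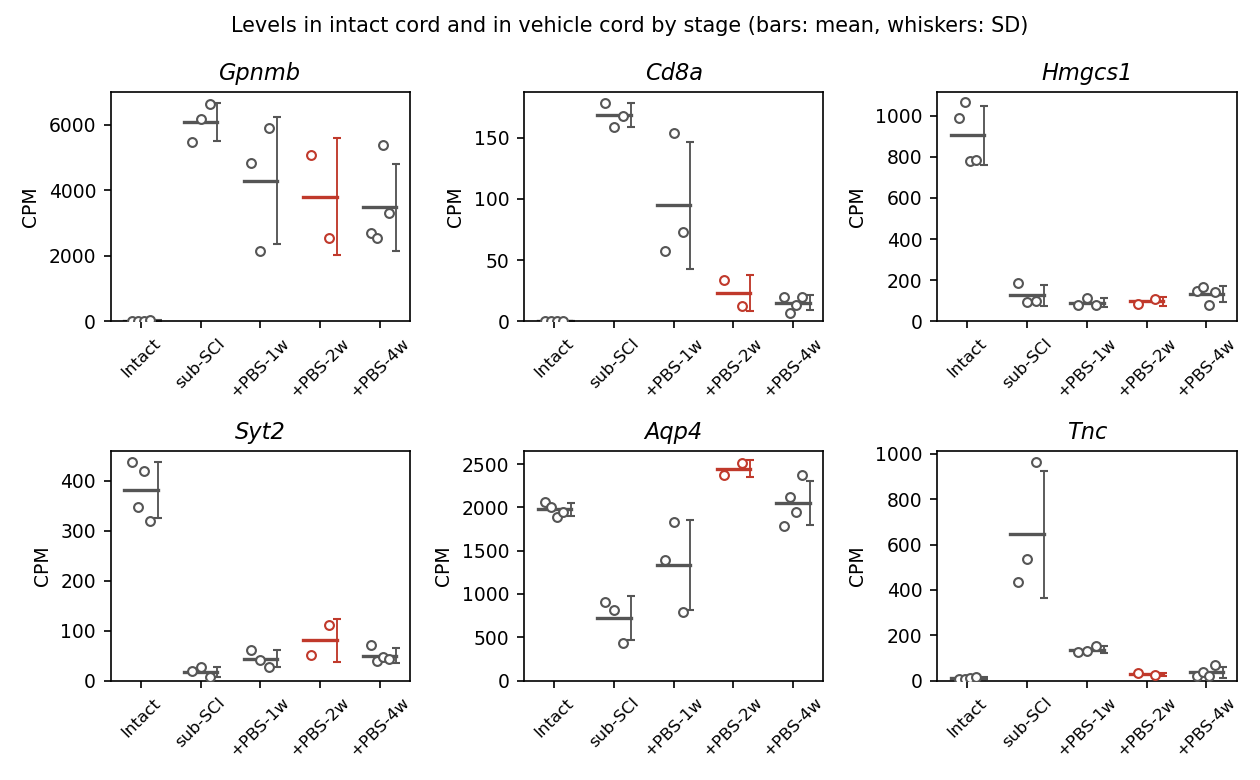
CPM of 6 genes in each library of Intact, sub-SCI and the 3 vehicle stages, with bars at group means and whiskers of 1 SD, on axes that start at 0. Gpnmb lies above and Hmgcs1 and Syt2 lie below all Intact libraries in every injured library, Cd8a and Tnc have their highest means in sub-SCI, and Aqp4 has its lowest mean there.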

How the data were processed

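Poly(A) RNA was sequenced in 26 libraries as paired reads of 150 bases. Per the study's methods, the authors trimmed reads with Trim Galore 0.5.0, removed reads mapping to human GRCh38, aligned the rest to rat Rnor6 with HISAT2 2.1.0, kept proper pairs with SAMtools 1.9 and counted reads per gene with featureCounts 1.6.4. The annotation release and strand setting are not given in the sources used here. The deposited values are raw counts per gene, and each single-library file equals its column of the joint table. Groups came from the labels. The counts were fitted with edgeR 4.0.16 in R 4.3.3 (quasi-likelihood test, 1 coefficient for each of 8 groups, TMM factors, filterByExpr), with Benjamini-Hochberg adjustment in each of 4 comparisons. A call needed an adjusted p under 0.01 and a log2 fold change beyond 1. Log2 CPM used a prior count of 2. Alternatives were other size factors, other filters (none, or at least 10 counts in every library), DESeq2 1.42.0, fits of 2 groups, a replicate block, a term for replicate 1 libraries and leaving out libraries. The scripts were tested on simulated counts. Members and gene lists were chosen with earlier results of these data known. Genes were named by rule: the 10 calls in each direction with the smallest adjusted p, the 10 with the largest fold at 5 CPM or more, list members, the leading genes against the other stages, and the 6 in each direction on which the vehicle libraries differed most, leaving out clone names. Some of the genes so named are not reported here. Promoter sequences are from RefSeq, build GRCr8.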

Additional observations from a re-analysis of the deposited data

Results flagged for a closer look

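Results stood out in a pair of ways, by rules applied to each named gene. In the first, 1 Intact library lay far from the other 3 by Dixon's criterion at the 95% level, which chance alone does in about 1 of 20 groups. It did so for 11 of the 206 sets of Intact values checked. Intact replicate 1 stood apart for Acacb (39 CPM), Hoxc10 (40.8 CPM), Hoxd10 (2.78 CPM), Klf6 (8.08 CPM) and Sprr1a (0.0546 CPM, 1 read). Intact replicate 2 stood apart for Ctsb (544 CPM) and Gfap (5415 CPM), replicate 3 for Apoe (2433 CPM), Cacna1g (99.8 CPM) and Per1 (79.5 CPM), and replicate 4 for Maob (46.8 CPM). Of these genes, Klf6, Sprr1a, Ctsb, Gfap, Apoe and Cacna1g were called. Both vehicle libraries lay outside the Intact range for them, as for every called gene, so this does not test their calls.

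In the second, +PBS-2w differed from sub-SCI, by the test of that difference itself, at 600 genes higher and 378 lower, and at 37 of the named genes. Among members of the receptor, channel and other neuronal lists the log2 fold change against sub-SCI was 2.25 for Chat, 1.76 for Gabra2, 1.56 for Gabrg1, 2.18 for Glra1, 1.85 for Kcna2, 1.11 for Map2, 1.62 for Rims1, 2.09 for Scn1a, 1.91 for Scn8a, 1.80 for Slc12a5 and 2.20 for Syt2. It was 1.95 for Esrrg, 1.96 for Insyn2 and 2.57 for Ndst4. Among genes of astrocytes and ciliated cells it was 1.76 for Aqp4, 1.67 for Mlc1, 1.61 for Slc6a11, 1.65 for Clu, 2.25 for Hydin and 1.24 for Maob. It was 1.80 for Acacb, 1.82 for Fmod, 2.84 for Igsf1 and 1.15 for Pygb for the other higher genes. The lower genes gave -2.17 for C5ar1, -2.86 for Cd8a, -1.65 for Ctsl, -1.06 for Dnase2, -2.25 for Dsn1, -2.81 for Hmox1, -2.02 for Ifitm1, -2.24 for Lif, -1.15 for Mmp19, -1.44 for Ninj1, -2.88 for Sdc1, -4.55 for Tnc and -2.60 for Top2a.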

How the results depend on the processing

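Against Intact, the counts of higher and lower genes were 928 and 159 with all replicate 1 libraries left out, and DESeq2 on the 2 groups gave 1638 lower genes. Leaving out 1 library in turn gave 890 to 1592 higher and 92 to 901 lower genes, the lowest without +PBS-2w replicate 1. Against sub-SCI, DESeq2 gave 632 lower genes on all libraries and 729 on the 2 groups, edgeR on the 2 groups gave 0 higher and 0 lower, 592 were lower with all replicate 1 libraries left out, and leaving out 1 library gave 85 to 558 higher and 13 to 425 lower. Against +PBS-1w, DESeq2 gave 2 higher and 9 lower genes on all libraries and 23 and 43 on the 2 groups, and against +PBS-4w 1 and 3 on the 2 groups. Leaving out 1 library gave 0 calls in every case there. The cause of these differences was not tested, and some of these fits also held fewer libraries. Deviations from the group mean correlated at -0.058 and 0.003 between +PBS-2w and Intact libraries of the same replicate number. With 2 vehicle libraries these deviations mirror each other, so the correlations cannot show whether libraries were paired. With the replicate block the counts against Intact were 1800 higher and 1343 lower. Of 3043 values of 205 named genes, 11 changed sign, none of them a call. With 1 library left out in turn, the log2 fold change against Intact ran from -1.14 to 0.25 for Fpr1, -0.05 to 0.20 for Hydin, -1.0 to 0.06 for Per1, -0.70 to 0.03 for Slc18a3, -0.46 to 0.78 for Bdnf, -4.4 to 3.86 for Hoxd10 and -1.84 to 0.17 for Cd79b. With all replicate 1 libraries left out it was 0.21 for Fpr1, 0.06 for Hoxc10, -0.11 for Hydin and 0.01 for Insyn2. Without +PBS-2w replicate 1, 58 named genes lost their call, and without replicate 2, 15. Depth limits genes with few Intact reads, and 2 vehicle libraries limit the rest.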

Other observations

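Some genes that cord cells are known to use are listed at 0 reads in all 6 libraries, namely Cldn5, Fth1, Hoxa5 and Neu4. Their levels are not taken as measurements of the tissue.

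Of 9 Schwann cell genes none was called, and their median log2 fold change was 0.60. Of 4 sensory ganglion genes tested none was called either, with a median of -0.73.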
